A study of Mus musculus with 2 samples.

Results

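The guanylate-binding proteins (GBPs) and the immunity-related GTPases (IRGs) are families of interferon-inducible GTPases. The genes described here were the 10 rows of the gene table with the symbols Gbp2, Gbp3, Gbp4, Gbp5, Gbp7, Gbp8, Irgm1, Igtp, Iigp1 and Ifi47, out of 31053 genes in all. They comprised 6 GBP genes and 4 IRG genes and were taken by symbol, without a filter on their levels. All 10 gave transcripts in both libraries.

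The measurements were single-cell RNA sequencing counts from subcutaneous B16 melanomas, a transplantable tumour of the C57BL/6 mouse, with 1 library for each genotype. The library labelled WT came from Mettl3 fl/fl Lyz2+/+ mice, which carry the floxed alleles but no Cre. The library labelled KO came from Mettl3 fl/fl Lyz2cre/+ mice, in which Cre is expressed from the Lyz2 locus in macrophages, monocytes, granulocytes and some dendritic cells. Mice in both groups were 8 weeks old, several mice were pooled into each library, and live cells (7-AAD negative) bearing the leucocyte protein CD45 were sorted before loading. Mettl3 encodes the catalytic subunit of the m6A RNA methyltransferase. T cells and the injected B16 cells do not express this Cre, so their Mettl3 alleles should be intact in both libraries.

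The library labelled WT held 5895 barcodes and the library labelled KO held 8446, of which 5405 and 7625 were kept, with a median of 4148 and 3567 UMIs (unique molecular identifiers, each marking 1 captured transcript). There were 13 barcode sequences that occurred in both libraries. Cells were placed in classes by their marker genes, and 934 and 1572 cells met no class. In the 11 classes used, all the markers of the class stood at 50 CPM or more (CPM being UMIs of a gene for every 1000000 UMIs of the class) and at 2 times the median of the other classes or more in both libraries. Where 2 values stand side by side, the first belongs to the library labelled WT and the second to the library labelled KO. Mettl3 itself stood at 9.91 and 10.7 CPM in macrophage-like cells, and the 95% counting interval of the log2 ratio ran from -0.18 to 0.41. In monocyte-like cells it stood at 10.7 and 10.4 CPM. The counts of the targeted gene therefore did not separate the libraries, and a transcript that lacks the floxed exon but keeps its 3' end would still be counted. Lyz2, of which the KO mice keep 1 intact copy, stood at 5864 and 2665 CPM in macrophage-like cells and at 11291 and 4536 in monocyte-like cells, lower in the library labelled KO. With 1 library for each label, no test between genotypes was possible. Intervals throughout are exact, at the 95% level, and cover counting error only, and each difference is one between these 2 libraries.

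GBPs belong to the dynamin superfamily. After induction by interferons, above all interferon-gamma, they coat intracellular bacteria and the vacuoles of parasites and promote the activation of inflammasomes. IRGs fall into effectors, which load onto vacuole membranes, and regulators of the Irgm group, which sit on host membranes and keep the effectors inactive there. The machinery that conjugates ATG8 proteins, better known from autophagy, is needed for their correct placement. Transcription of both families is driven through gamma-activated sites (GAS), through IRF1, and through interferon-stimulated response elements (ISRE).

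The members lie in a few clusters. In the GRCm38 assembly, Gbp5 (chr3:142493978-142522344), Gbp7 (chr3:142530342-142550149), Gbp3 (chr3:142560026-142573209) and Gbp2 (chr3:142620602-142638008) stand side by side on the plus strand within 144 kb. Gbp4 (chr5:105115767-105139586) and Gbp8 (chr5:105014150-105139540) are on the minus strand, and their spans overlap. On chromosome 11 are Irgm1 (chr11:48861968-48871683, minus strand), Ifi47 (chr11:49076587-49096974) and Igtp (chr11:58199556-58207591), both on the plus strand. Iigp1 is on chromosome 18. Gbp4 and Gbp8 share 61 exonic bases with each other and with Gbp9, Igtp shares 162 with Irgm2 and Ifi47 shares 111 with Olfr56, so reads falling there cannot be given to 1 gene with certainty. The coding sequences of the 6 GBP genes were 61.8% to 92.8% identical in their 15 pairs. Gbp4 and Gbp8 were the closest pair at 92.8% and Gbp3 and Gbp7 followed at 78.5%. Irgm1 and Igtp, both regulators, were 69.3% identical, and Iigp1 and Ifi47 were 61.9% identical. The reads of this assay come from the 3' end of the transcript. Of the 91-base windows in the last 500 bases of each transcript, 4.72% of those of Gbp4 also occurred in another gene (Gbp6, Gbp9 or Gm43302), against 1.69% for Ifi47 and 0.375% for Gbp3, and none for the other 7 members.

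The upstream sequences show which of the members carry the letters of these interferon elements near the transcription start. RefSeq promoter entries (GRCm38.p6) were at hand for 7 of the 10 members, and none for Gbp4, Gbp8 or Iigp1. A pair of patterns was searched on both strands of the 250 bases before each start. The GAS pattern was TTCNNNGAA, and the ISRE-type pattern was GAAANNGAA, or TTCNNTTTC on the other strand. In the stretches below, written 5' to 3' along the gene, capitals mark the matches and all other bases are in lower case.

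Gbp5 (chr3:142496684-142496899, plus strand): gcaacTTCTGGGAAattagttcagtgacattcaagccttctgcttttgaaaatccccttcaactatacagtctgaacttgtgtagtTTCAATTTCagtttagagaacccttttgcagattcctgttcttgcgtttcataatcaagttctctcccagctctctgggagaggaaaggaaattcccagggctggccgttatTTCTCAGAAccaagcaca
Gbp7 (chr3:142530220-142530335, plus strand): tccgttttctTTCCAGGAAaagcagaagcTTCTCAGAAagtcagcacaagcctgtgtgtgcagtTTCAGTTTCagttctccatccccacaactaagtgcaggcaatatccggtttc
Gbp3 (chr3:142559944-142560025, plus strand): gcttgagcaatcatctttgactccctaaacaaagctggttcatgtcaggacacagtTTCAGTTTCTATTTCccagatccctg
Gbp2 (chr3:142620594-142620623, plus strand): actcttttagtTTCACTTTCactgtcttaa
Igtp (chr11:58199456-58199555, plus strand): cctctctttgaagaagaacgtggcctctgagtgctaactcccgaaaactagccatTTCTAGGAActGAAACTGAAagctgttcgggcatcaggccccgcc
Irgm1 (chr11:48871429-48871458, minus strand): tgtttcaaGAAATAGAAACCGAAactgatt

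The 7 members had 8 promoter entries. The GAS pattern occurred in 3 of the 8 (those of Gbp5, Gbp7 and Igtp) and in 7.02% of the 32851 mouse promoters in the table. The ISRE-type pattern occurred in 6 of the 8 and in 7.13% of all promoters. One pattern or the other was found in 6 of the 8, against 13.4% of all promoters, and the entry of Ifi47 and 1 of the 2 entries of Gbp3 had neither in this window. Gbp5 and Gbp7 each had 2 GAS matches and 1 ISRE-type match. In Gbp3 and Irgm1, 2 ISRE-type matches overlapped each other. A match of letters is a description of the sequence and not a measured binding site. For Gbp2 and Irgm1 only 30 bases are shown because annotated exons cover the stretch.

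The levels of the 10 members by cell class are given first, since the families were not expressed alike. Levels are CPM of the UMIs summed over the cells of a class. Because each UMI marks 1 transcript at its 3' end, a level does not grow with the length of the gene. Summed over the 10 members, macrophage-like cells stood at 820 and 978 CPM, and monocyte-like cells at 892 and 1517. Granulocyte-like cells stood at 812 and 919, T-like cells at 539 and 589, and melanoma-like cells at 267 and 343. As a measure of free RNA, C1qa, a complement gene of macrophages that T cells do not express, stood at 3228 and 3195 CPM in macrophage-like cells and at 140 and 137 CPM in T-like cells. Other myeloid genes were not equal there. In T-like cells Lyz2 stood at 954 and 219 CPM and S100a8, a granulocyte gene, at 81.5 and 14.3 CPM.

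**Figure D1:**
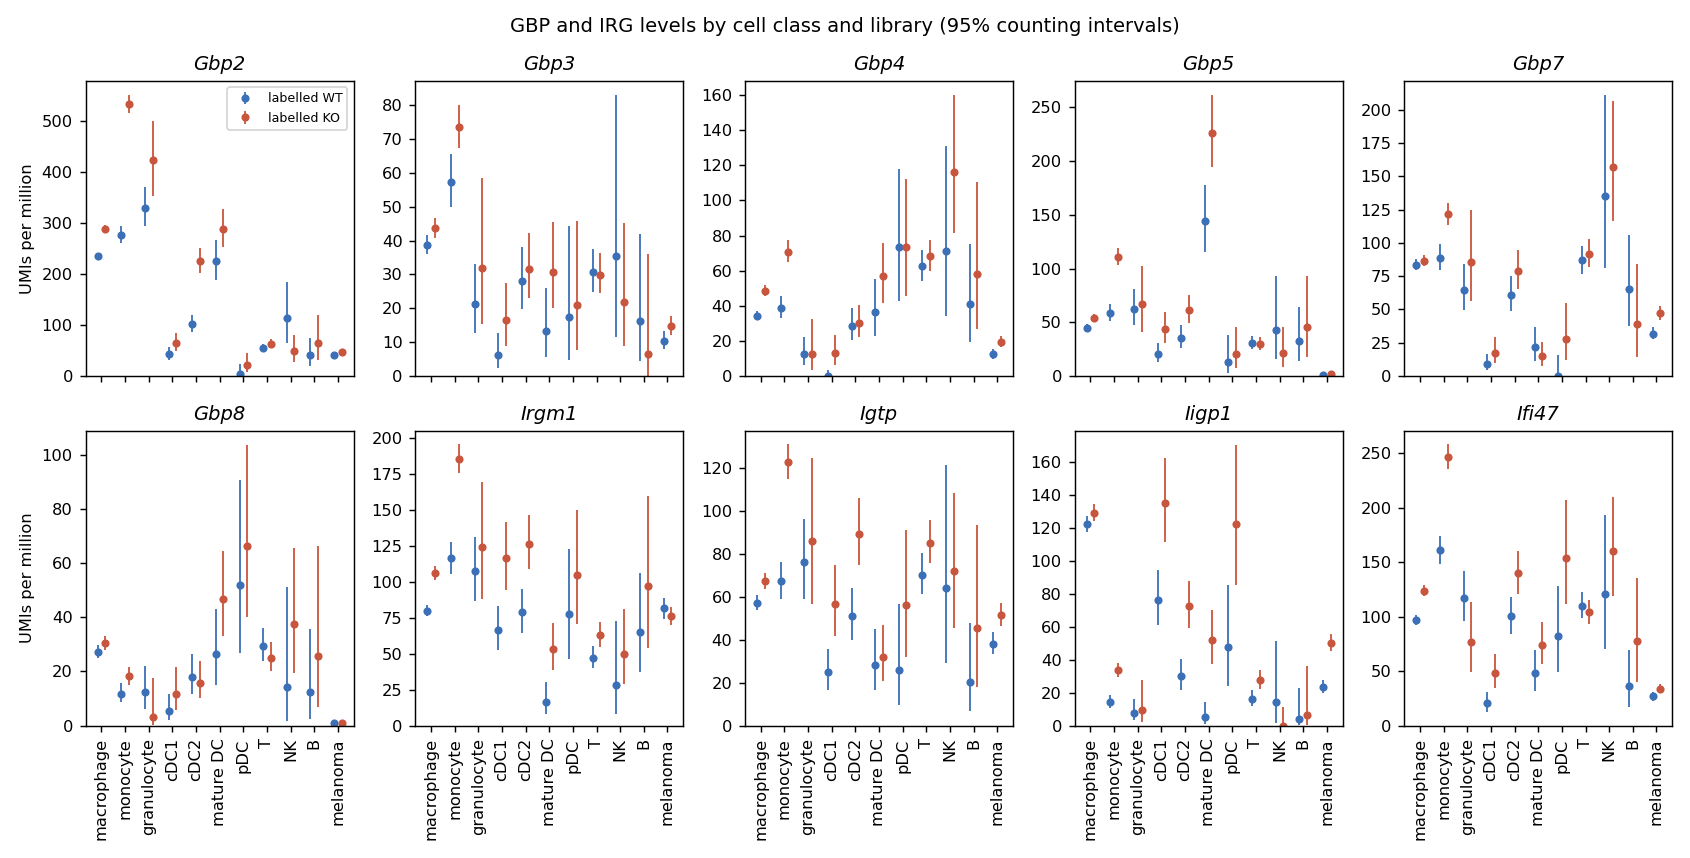
Level of each member in 11 cell classes, in CPM, with points for the library labelled WT (blue) and the library labelled KO (red) and bars for the 95% counting interval. The monocyte-like cells of the library labelled KO lie above those of the library labelled WT for all 10 members, while the melanoma-like cells are near 0 for Gbp5 and Gbp8.

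Gbp2, which acts on parasite vacuoles, was highest in granulocyte-like cells (330 CPM) and monocyte-like cells (277 CPM) of the library labelled WT, and the intervals of these neighbours overlapped. In the library labelled KO the order turned, with monocyte-like cells at 534 CPM and granulocyte-like cells at 423 CPM. Plasmacytoid dendritic cell (pDC)-like cells were lowest in both, at 4.33 and 21.01 CPM from 1 and 6 UMIs. Granulocyte-like, monocyte-like, macrophage-like and mature dendritic cell-like cells were the 4 highest classes in both libraries. Among lymphoid cells, Gbp2 stood at 54.2 and 63.1 CPM in T-like cells, at 57.4 and 110 CPM in their CD4 subset and at 114 and 50.2 CPM in natural killer-like cells.

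Gbp5, which promotes assembly of the NLRP3 inflammasome, was highest in mature dendritic cell (DC)-like cells, at 144 and 226 CPM, in both libraries. The next classes were granulocyte-like cells at 62.6 CPM in the library labelled WT and monocyte-like cells at 111 CPM in the library labelled KO. Their intervals did not overlap those of the mature DC-like cells. Melanoma-like cells stood at 1.32 and 2.13 CPM, from 8 and 16 UMIs. Gbp7 had another order, with natural killer (NK)-like cells at the top (135 and 157 CPM), monocyte-like cells next (88.9 and 122 CPM), and the intervals of these neighbours overlapping. In mature DC-like cells Gbp7 was at only 21.6 and 14.8 CPM.

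Gbp4 and Gbp8, the neighbours on chromosome 5, were highest outside the macrophages. Gbp4 stood at 73.6 and 73.5 CPM in pDC-like cells, at 71.1 and 116 CPM in NK-like cells and at 62.6 and 68.4 CPM in T-like cells, with overlapping intervals among neighbours. Gbp8 was highest in pDC-like cells, at 51.9 and 66.5 CPM from 12 and 19 UMIs, and in both libraries the interval overlapped that of the next class. In type 1 conventional dendritic cell (cDC1)-like cells of the library labelled WT, Gbp4 gave 0 UMIs, below the floor of 3 UMIs (2.66 CPM), with an exact upper bound of 3.27 CPM, while the library labelled KO gave 11 UMIs (12.9 CPM). Gbp3 was highest in monocyte-like cells, at 57.2 and 73.5 CPM, ahead of macrophage-like cells at 38.7 and 43.6 CPM, and these intervals did not overlap.

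Among the IRGs, the regulator Irgm1 was highest in monocyte-like cells, at 116 and 186 CPM. In the library labelled WT this interval overlapped that of granulocyte-like cells, at 107 CPM. The regulator Igtp, also named Irgm3, ranged from 20.4 CPM in B-like cells to 76.1 CPM in granulocyte-like cells of the library labelled WT, and all 10 pairs of neighbouring classes had overlapping intervals. In the library labelled KO monocyte-like cells led at 123 CPM. Ifi47, also named Irgd, was highest in monocyte-like cells of both libraries (161 and 247 CPM), followed by NK-like cells (121 and 160 CPM). In the library labelled WT the intervals of these neighbours overlapped.

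Iigp1, the effector Irga6, had the pattern least like the other members. Macrophage-like cells stood at 122 and 129 CPM, and monocyte-like cells at only 14.2 and 33.5 CPM. The cDC1-like cells stood at 76.3 and 135 CPM. Across the 16 sums of cells (8 classes in each library with at least 100 cells), the median Pearson r of Iigp1 with the other 9 members was 0.05, against 0.26 to 0.55 for each of the others. Among these sums, B-like cells came only from the library labelled WT and NK-like cells only from the library labelled KO. The cDC1-like and pDC-like cells were not among them. The closest pairs were Gbp3 with Ifi47 (r = 0.84), Igtp with Ifi47 (r = 0.77), Gbp4 with Gbp8 (r = 0.76) and Gbp2 with Gbp5 (r = 0.75). These values describe 16 sums that share 2 libraries, and Gbp4 and Gbp8 share sequence.

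In monocyte-like cells all 10 members were higher in the library labelled KO, with a median log2 ratio of 0.77, which is 1.70-fold. This class is marked by Ccr2, Vcan, F13a1, Chil3 and Hp and held 777 and 1791 cells. Over the 2974 genes with at least 50 CPM in 1 of the libraries or both, the median log2 ratio was 0.03. Of the 10 members 8 reached 50 CPM. The log2 ratio was at least 1.5-fold for 8 of 10 members, where 3.7% of all genes were as far above, and at least 2-fold for 1 of 10, where 0.874% were. The counting interval lay above 0 for 10 of 10 members, where it did for 25.6% of all genes.

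Gbp2 stood at 277 CPM (interval 260 to 294) and 534 CPM (517 to 551), and its log2 ratio was 0.95 (interval 0.85 to 1.05). Gbp5 stood at 58.8 and 111 CPM, with a log2 ratio of 0.91 (0.70 to 1.14). Gbp4 stood at 39.0 and 70.8 CPM, with a log2 ratio of 0.86 (0.59 to 1.14). None of these intervals of the level overlapped between the libraries, and the share of all genes without such overlap was not counted. Gbp7, which takes part in the oxidative defence of macrophages, was at 88.9 and 122 CPM, a smaller log2 ratio of 0.45 (0.27 to 0.64). Gbp3 had the smallest, 0.36 (0.13 to 0.60), at 57.2 and 73.5 CPM. Gbp8, the least counted member here with 44 and 128 UMIs, had a log2 ratio of 0.62 (0.11 to 1.15).

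The IRGs differed by the same order of size, with a median log2 ratio of 0.77 over the 4 genes beside 0.74 over the 6 GBPs. Igtp stood at 67.2 and 123 CPM, with a log2 ratio of 0.87 (0.67 to 1.08). Irgm1 stood at 116 and 186 CPM, with a log2 ratio of 0.67 (0.52 to 0.83). Ifi47 stood at 161 and 247 CPM, with a log2 ratio of 0.62 (0.48 to 0.75). Iigp1 was the member past 2-fold, at 14.2 and 33.5 CPM with a log2 ratio of 1.23 (0.80 to 1.69). It rested on 53 UMIs in 33 cells and 236 UMIs in 124 cells. The number of members past 2-fold was not stable: it was 6 when cells were classed by clustering, 4 when each cell was thinned to 1000 UMIs and 0 when Ly6c2 and Plac8 were added to the monocyte markers.

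**Figure D2:**
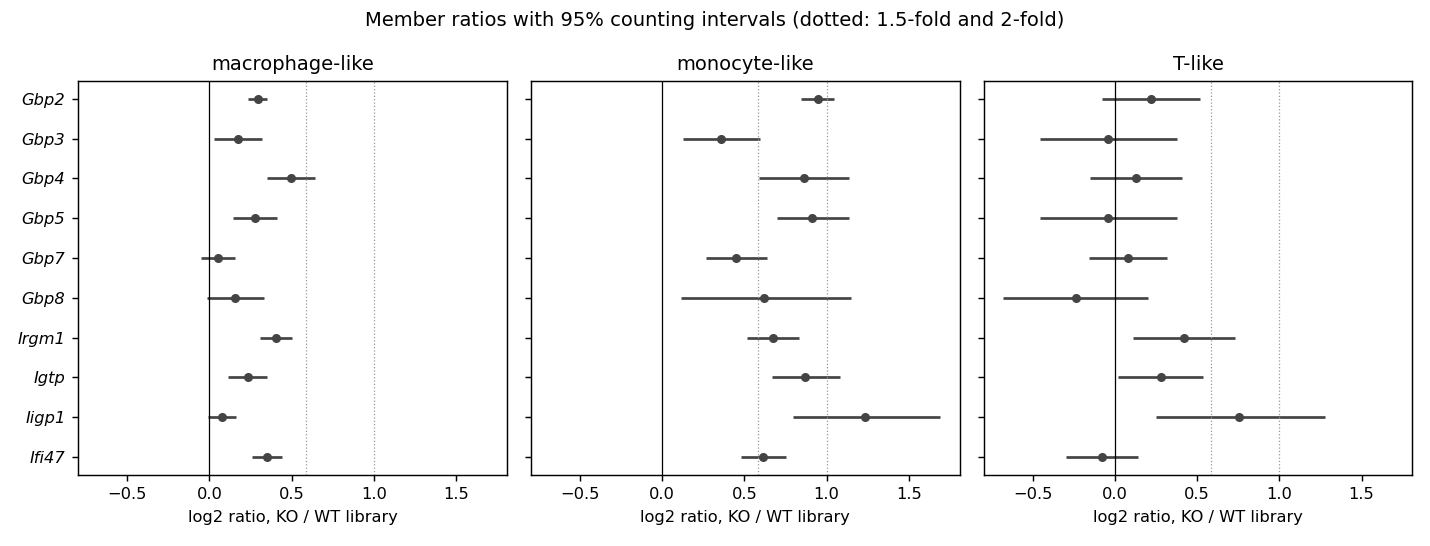
Log2 ratio of each member, library labelled KO over library labelled WT, in macrophage-like, monocyte-like and T-like cells, with 95% counting intervals as bars and dotted lines at 1.5-fold and 2-fold. All 10 intervals lie above 0 in monocyte-like cells, 7 in macrophage-like cells and 3 in T-like cells.

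In macrophage-like cells, marked by genes that include C1qa, C1qb, C1qc, Ms4a7, Adgre1, Trem2 and Apoe, the ratios were smaller. All 10 members were again higher in the library labelled KO. Their median log2 ratio was 0.26, or 1.19-fold, with a range of 0.05 to 0.50. Over all 2824 genes at 50 CPM or more the median log2 ratio was 0.01. No member reached 1.5-fold, as 1.45% of all 2824 genes did, or 2-fold, as 0.354% did. The interval lay above 0 for 7 of 10 members, and for 30.6% of all genes at the depth of this class, which was 19478340 and 18281255 UMIs. Of the members 7 were at 50 CPM or more.

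Gbp4 had the largest ratio of the members in macrophage-like cells, at 34.3 and 48.5 CPM (log2 ratio 0.50, interval 0.35 to 0.65). Irgm1 followed, at 80.1 and 106 CPM (0.40, 0.31 to 0.50), and Ifi47 was at 97.1 and 124 CPM (0.35, 0.26 to 0.44). With each cell thinned to 1000 UMIs the log2 ratio of Gbp4 was 0.14, and by the mean of per-cell CPM it was 0.34. Both lay below its interval, and Gbp5 had a larger ratio in each, at 0.46 and 0.39. Gbp2 was at 235 and 288 CPM (0.29, 0.24 to 0.35). Gbp5 was at 44.9 and 54.5 CPM, Igtp at 57.2 and 67.3 CPM and Gbp3 at 38.7 and 43.6 CPM. For these 7 genes the interval of the ratio lay above 0. It reached below 0 for Gbp7 (83.4 and 86.5 CPM), Gbp8 (27.3 and 30.5 CPM) and Iigp1 (122 and 129 CPM), the last of which lay just above 0 without the cell with the most of its UMIs in each library. Iigp1 thus had the largest ratio of the members in monocyte-like cells and one of the smallest in macrophage-like cells, where its level was several times higher.

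Ly6c2 and Plac8, genes of monocytes that are themselves induced by interferon and were kept out of the gate, stood at 78.1 and 191 CPM (Ly6c2) and at 300.4 and 639 CPM (Plac8) in macrophage-like cells. The median macrophage score was 0.757 and 0.675 and the median monocyte score 0.141 and 0.141. In monocyte-like cells the median monocyte score was 0.619 and 0.572. Near the boundary of the gate lay 115 and 174 macrophage-like cells and 76 and 187 monocyte-like cells. To set the ratios beside these scores, cells whose best score was that of either class, also those too close to the boundary to be gated, were cut into 7 bins by the macrophage score minus the monocyte score.

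At the monocyte end (difference under -0.4, 336 and 751 cells) the 10 members summed to 785 CPM (interval 742 to 831) and 1556 CPM (1509 to 1603), and the median log2 ratio was 1.07. In the next 2 bins the median was 0.61 and 0.63. In the 4 bins toward the macrophage end it was 0.25, 0.31, 0.28 and 0.21, the last from 838 and 979 CPM in 793 and 812 cells. In the library labelled WT the summed level ranged from 728 to 1012 CPM with no steady course over the bins. In the library labelled KO it was 1556 CPM at the monocyte end and 881 and 979 CPM in the last 2 bins. The bin from 0 to 0.2 was the only one in which any member was lower in the library labelled KO, and those 2 members were Gbp3 (-0.18) and Igtp (-0.02). Median UMIs per cell also rose along the bins, from 4160 and 3214 to 12980 and 10302.5, and the part of depth was not tested.

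**Figure D3:**
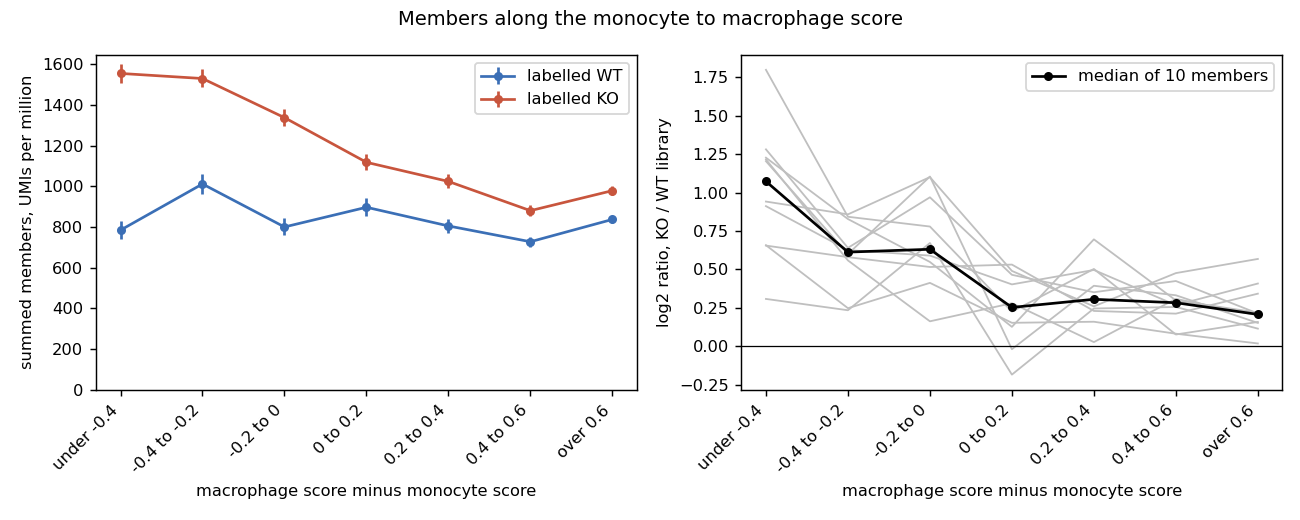
Left, summed level of the 10 members in CPM along 7 bins of the macrophage score minus the monocyte score, with 95% counting intervals, for the library labelled WT (blue) and the library labelled KO (red). Right, log2 ratio of each member (grey lines) and their median (black) in the same bins, which goes from 1.07 at the monocyte end to 0.21 at the macrophage end.

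Within the monocyte-like cells, those with a UMI of Ace or Adgre4, genes of nonclassical monocytes, numbered 131 and 320 and had a median log2 ratio of 1.17. The cells without such a UMI numbered 646 and 1471 and had a median of 0.68. The difference was mainly in the library labelled WT, where the sum of the members was 725 CPM in the first and 926 CPM in the second, against 1524 and 1516 CPM in the library labelled KO. Splitting the monocyte-like cells at the median level of H2-Ab1, an MHC class II gene, gave a median log2 ratio of 0.98 at or below it and 0.64 above it. Cells of 3000 UMIs or more had a median log2 ratio of 0.72 and cells under 3000 UMIs had one of 1.04, and all 10 members were higher in each of these 6 subsets. Macrophage-like cells with a Mki67 or Top2a UMI, which mark cycling cells, had a median of 0.21 against 0.33 without. A UMI of any such gene is more likely to be caught in a deeper cell.

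The members were also counted cell by cell at equal depth. A higher level in each cell by itself leaves fewer cells without a UMI, so these shares do not separate the number of expressing cells from the level per cell, and no class was free of these transcripts to serve as background. With each cell thinned to 1000 UMIs, 59.4% (interval 55.7 to 62.9) of 748 monocyte-like cells labelled WT held no UMI of any member, against 42.3% (39.97 to 44.7) of 1725 labelled KO. Cells with 3 or more such UMIs were 12.3% (10.03 to 14.9) and 23.7% (21.7 to 25.7). In macrophage-like cells the share with none was 54.1% and 51.5%, with overlapping intervals, and the share with 3 or more was 8.66% (7.32 to 10.2) and 12.9% (11.4 to 14.4). In T-like cells those shares were 7.18% and 7.05%, with overlapping intervals. Thinning left out 29 and 66 monocyte-like cells and 94 and 133 macrophage-like cells with fewer UMIs. Without thinning, Gbp2 had a UMI in 249 of 777 and 819 of 1791 monocyte-like cells.

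**Figure D4:**
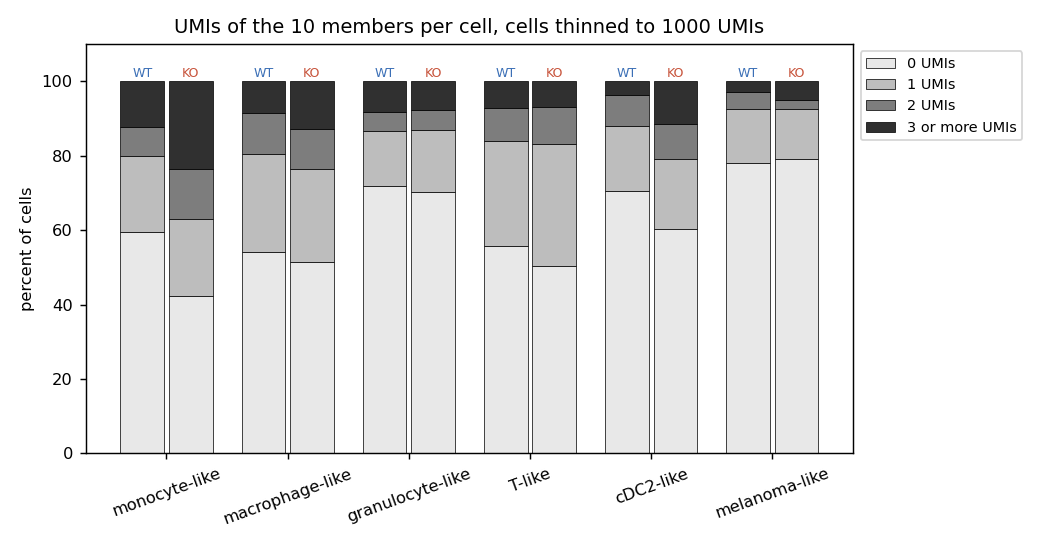
Percent of cells with 0, 1, 2 or 3 or more UMIs of the 10 members after thinning each cell to 1000 UMIs, as stacked bars for each class and library. The dark segment of 3 or more UMIs is 12.3% and 23.7% of monocyte-like cells and 7.18% and 7.05% of T-like cells in the libraries labelled WT and KO.

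Type 1 and type 2 conventional DC-like cells also had higher levels in the library labelled KO. The cDC1-like cells (95 and 73 cells) had a median log2 ratio of 1.09 over the 9 members with UMIs in both libraries. Of these, 8 were at least 1.5-fold higher, where 5.58% of all genes at 50 CPM or more were. Only 4 members reached 50 CPM, and among all genes at 10 CPM or more the share was 12.5%. Igtp stood at 24.8 and 56.4 CPM (log2 ratio 1.18, interval 0.48 to 1.91), and Irgm1 at 66.5 and 116 CPM (0.81, 0.36 to 1.26). The cDC2-like cells (185 and 243 cells) had a median of 0.58, and 5 of 10 members were at least 1.5-fold higher, where 3.72% of all genes at 50 CPM or more and 7.18% of those at 10 CPM or more were. Gbp2 stood there at 102 and 226 CPM (1.14, 0.86 to 1.44) and Iigp1 at 30.1 and 72.2 CPM (1.26, 0.73 to 1.82). Gbp8 was at 17.9 and 15.8 CPM, with an interval on both sides of 0.

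In mature DC-like cells (106 and 149 cells) the median log2 ratio was 0.64 and 7 of 10 members were at least 1.5-fold higher, where 6.23% of all genes at 50 CPM or more and 16.8% of those at 10 CPM or more were. Iigp1 gave 3 UMIs in 2 cells and 42 UMIs in 14 cells (log2 ratio 3.38, interval 1.74 to 5.72), and Irgm1 stood at 16.6 and 53.1 CPM (1.68, 0.66 to 2.84). Gbp7 stood at 21.6 and 14.8 CPM with an interval from -1.80 to 0.71. In pDC-like cells (67 and 86 cells) 5 of the 9 members with UMIs in both libraries were at least 1.5-fold higher, where 14.1% of all genes at 50 CPM or more and 23.8% of those at 10 CPM or more were, and the interval lay above 0 for Iigp1 (1.36, 0.35 to 2.49) and Ifi47 (0.91, 0.10 to 1.76). Gbp7 gave 0 UMIs in the library labelled WT, below the floor of 3 UMIs (12.98 CPM), with an exact upper bound of 15.96 CPM, and 8 UMIs in the other.

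In granulocyte-like cells (552 and 236 cells) the median log2 ratio of the members was 0.19, and that of all genes was 0.13, at a depth of only 893991 and 314488 UMIs. No member was 1.5-fold higher in the library labelled KO, where 14.6% of all genes at 50 CPM or more and 25.2% of those at 10 CPM or more were. Of the 10 members 2 were at least 1.5-fold lower, Gbp8 and Ifi47, where 13.5% of all genes at 10 CPM or more were. Gbp2 alone had an interval above 0, at 330 and 423 CPM (0.36, 0.05 to 0.66), and it crossed 0 without the cell with the most Gbp2 UMIs in each library (0.31, -0.01 to 0.63). Ifi47 was at 117 and 76.3 CPM (-0.62, interval -1.33 to 0.03), and without the cell with the most Ifi47 UMIs in each library its interval lay below 0 (-0.72, -1.47 to -0.03). Gbp8 gave 11 and 1 UMIs (-1.95, interval -7.38 to 0.83).

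In T-like cells (649 and 777 cells) the members scattered about 0, with a median log2 ratio of 0.10, where that of all genes was 0.05. Of the 10 members 6 were higher in the library labelled KO. One member, Iigp1, was at least 1.5-fold higher, where 1.12% of all genes at 50 CPM or more and 3.23% of those at 10 CPM or more were. None was 2-fold higher, where 0.175% of all genes at 50 CPM or more were. The interval lay above 0 for 3 of 10 members, where it did for 17.9% of all genes, and all 3 were IRGs. They were Iigp1 at 16.4 and 27.6 CPM (0.76, 0.25 to 1.28), Irgm1 at 47.2 and 63.1 CPM (0.42, 0.11 to 0.73) and Igtp at 70.3 and 85.3 CPM (0.28, 0.02 to 0.54). The difference in Iigp1 turned when cells were classed by clustering, where its log2 ratio was -0.058. None of the 6 GBPs had an interval on 1 side of 0, but Gbp2 did (0.40, 0.09 to 0.72) when the cell with the most of its UMIs (29 and 13) was left out of each library. Within the T-like cells, CD8 T-like cells (385 and 378) had a median of -0.04 and CD4 T-like cells (76 and 126) one of 0.16. In CD8 T-like cells Ifi47 stood at 103 and 85.1 CPM (log2 ratio -0.28), and the upper bound of that interval was just under 0. Without the cell with the most Ifi47 UMIs in each library the interval crossed 0 (-0.27, -0.56 to 0.01). Myeloid genes were also lower there in the library labelled KO, with C1qa at 146 and 101.1 CPM (-0.53, -0.77 to -0.28), Lyz2 at 1069 and 204 CPM and Cd74 at 1430 and 829 CPM. Over all T-like cells myeloid RNA was nearly equal between the libraries by C1qa and lower in the library labelled KO by Lyz2 and S100a8, as given above. Cd74, which antigen-presenting cells express, stood at 1373 and 957 CPM in T-like cells, and the part of such RNA in the T-like and CD8 T-like values was not tested.

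In NK-like cells (64 and 161 cells) 3 of the 9 members with UMIs in both libraries, Gbp4, Gbp8 and Irgm1, were at least 1.5-fold higher, where 16.6% of all genes at 50 CPM or more and 26.5% of those at 10 CPM or more were. As many members, Gbp2, Gbp3 and Gbp5, were at least 1.5-fold lower, where 24.2% of all genes at 10 CPM or more were. Gbp2 alone had an interval on 1 side of 0, at 114 and 50.2 CPM, from 16 UMIs in 6 cells and 16 UMIs in 15 cells (log2 ratio -1.18, interval -2.28 to -0.09). A single cell held 10 of the 16 UMIs in the library labelled WT, and without the cell with the most Gbp2 UMIs in each library the log2 ratio was -0.00 (-1.47 to 1.67). In the same cells Lyz2 stood at 1073 and 31.3 CPM and Cd74 at 1265 and 176 CPM, and the part of myeloid RNA was not tested. In B-like cells (132 and 93 cells) 5 of 10 members were at least 1.5-fold higher, where 21.6% of all genes at 50 CPM or more and 30.2% of those at 10 CPM or more were. Gbp3 and Gbp7 were at least 1.5-fold lower, as 24.9% of all genes at 10 CPM or more were, and no interval of a member lay on 1 side of 0.

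The melanoma-like cells (144 and 232) were tumour cells that passed the sort, with Ptprc, the gene of CD45, at 7.94 and 7.73 CPM against 189 CPM or more in every immune class. The median log2 ratio was 0.46, and 9 of 10 members were higher in the library labelled KO. Over all genes at 50 CPM or more the median was -0.03. At least 1.5-fold higher were 3 members, where 1.47% of all genes at 50 CPM or more and 3.14% of those at 10 CPM or more were. None of these 3, Iigp1, Gbp4 and Gbp5, reached 50 CPM, and Gbp5 was under 10 CPM as well, at 8 and 16 UMIs (log2 ratio 0.69, interval -0.62 to 2.12). Iigp1 stood at 23.3 and 49.97 CPM (1.10, 0.82 to 1.39) and Gbp4 at 12.4 and 19.3 CPM (0.64, 0.23 to 1.06). Under 1.5-fold, Gbp7 was at 31.9 and 47.2 CPM (0.56, 0.31 to 0.82). Irgm1, the member with the highest count in these cells, was at 81.6 and 76.2 CPM with an interval from -0.27 to 0.08. Only 2 members reached 50 CPM.

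The ligand that induces these families was counted mainly in T-like and NK-like cells. Ifng stood at 219 and 272 CPM in T-like cells (log2 ratio 0.31, interval 0.17 to 0.46). Within these, it stood at 271 and 340 CPM in CD8 T-like cells (0.33, 0.18 to 0.48). In CD4 T-like cells it stood at 30.6 and 108 CPM, from 8 and 60 UMIs (1.83, 0.76 to 3.10). NK-like cells stood at 142 and 110 CPM of Ifng (interval -1.21 to 0.50). In macrophage-like cells it stood at 4.83 and 4.92 CPM. None of the 13 ligand genes listed reached 10 CPM in macrophage-like or monocyte-like cells. Of the 4 receptor genes, none was at least 1.5-fold different in macrophage-like cells, where all 4 intervals crossed 0, and Ifngr1 was lower in monocyte-like cells, at 290 and 198 CPM (-0.55, -0.67 to -0.43). The transcription factor gene Irf1 stood at 225 and 280.1 CPM in monocyte-like cells (log2 ratio 0.32) and at 137 and 145 CPM in macrophage-like cells (0.08). Stat2 was at 59.3 and 81.3 CPM and Jak2 at 30.8 and 38.2 CPM in macrophage-like cells. Of the 9 transducers, 1 of 9, Stat2 at 104 and 165 CPM, was at least 1.5-fold higher in monocyte-like cells. In macrophage-like cells 0 of 9 were. Among all genes at 10 CPM or more, the shares were 3.44% in monocyte-like and 1.29% in macrophage-like cells. Socs1, a feedback inhibitor of these receptors, stood at 74.96 and 134 CPM in monocyte-like cells (0.84, 0.65 to 1.04), at 60.5 and 74.1 CPM in macrophage-like cells (0.29, 0.18 to 0.41) and at 73.8 and 71.0 CPM in T-like cells.

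Other genes of both families, listed beside the members, were sparsely counted. Of the 15 listed, 13 were rows of the table and 5 reached 10 CPM in macrophage-like cells, with a median log2 ratio of 0.18 and none at 1.5-fold. Gbp9 stood at 14.8 and 20.7 CPM and Gbp2b at 12.6 and 17.4 CPM, while 9930111J21Rik2 was at 29.6 and 26.9 CPM. In monocyte-like cells 4 reached 10 CPM, with a median log2 ratio of 0.14. The highest was Irgm2, the third regulator, at 41.4 and 63.4 CPM (0.62, 0.35 to 0.89), and the lowest was Gm5431, at 13.7 and 10.4 CPM (-0.40, -0.94 to 0.14).

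Set beside other interferon targets, the members stood between 2 lists in macrophage-like cells. Of the 17 genes taken as typical of interferon-gamma, 16 reached 10 CPM, their median log2 ratio was 0.22 and none was at 1.5-fold. Of 17 genes taken as typical of type I interferon, 16 of 17 were at least 1.5-fold higher, where 1.29% of all genes at 10 CPM or more were, and the median was 0.81, so the median of the members (0.26) was near that of the first list. Oasl1 stood at 36.7 and 82.5 CPM and Isg15, a ubiquitin-like modifier, at 207 and 445 CPM (1.10, 1.05 to 1.16), and the lowest of the list was Ifi204 at 174 and 257 CPM (0.56). In the first list, Batf2 was at 26.0 and 37.0 CPM and Serpina3g at 80.7 and 108 CPM, while Ciita was at 46.3 and 46.4 CPM and Psmb8 at 492 and 494 CPM. In monocyte-like cells the members' median of 0.77 stood between 0.33 for the interferon-gamma list and 1.07 for the type I list. The interferon-gamma list was split there. Cxcl10 stood at 277 and 621 CPM and Cxcl9 at 200.4 and 369 CPM, but the MHC class II genes H2-Aa (1632 and 1377 CPM) and Cd74 (5084 and 4549 CPM) were lower in the library labelled KO. In T-like cells the medians were -0.08 and 0.48, and in melanoma-like cells 0.42 and 0.93. In granulocyte-like cells they were 0.09 and -0.15. Of the 15 type I genes at 10 CPM or more there, none was 1.5-fold higher and 4 were 1.5-fold lower in the library labelled KO. Among all genes at 10 CPM or more there, 25.2% were 1.5-fold higher and 13.5% were 1.5-fold lower. Many genes answer to both interferons, so the lists overlap in biology.

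The families work with other proteins in cell-autonomous defence. The 11 genes of ATG8 conjugation, which directs IRGs and GBPs to vacuoles, had a median log2 ratio of 0.00 in macrophage-like cells and -0.03 in monocyte-like cells, and none was at 1.5-fold in either. Their range in macrophage-like cells ran from -0.17 for Gabarapl2 to 0.22 for Atg7. The 8 inflammasome genes had medians of 0.17 and 0.14, and none was at 1.5-fold in either class. Casp4, the mouse gene for caspase-11, stood at 22.9 and 29.6 CPM in macrophage-like cells (0.37, 0.18 to 0.55), Il1b at 88.7 and 119.5 CPM (0.43, 0.34 to 0.52) and Pycard at 417 and 413 CPM.

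The genes whose levels followed those of the members most closely over the 16 sums were sought among 5928 genes at 50 CPM or more in at least 1 sum. The measure was the Pearson r of log2(CPM + 1) with the mean standardised level of the 10 members. The 5 highest were Fcgr1 (r = 0.916), Ccl9 (0.913), Fam26f (0.912), Zbp1 (0.907) and Ifi204 (0.899). Fcgr1 encodes the high-affinity receptor for IgG, Ccl9 a chemokine, and Zbp1 and Ifi204 are sensors of nucleic acids. The 16 points share 2 libraries, and myeloid classes and their depth weigh in all of these values.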

How the data were processed

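Live CD45+ cells of 1 library per genotype were measured. The authors deposited raw UMI counts per gene and barcode, made with Cell Ranger (4.0.0 in the matrix header) on mm10, and a list of barcodes with their library. Per the study's methods, cells with few genes or much mitochondrial RNA and doublets were removed for its own clustering, which was not used here. Starting from the deposited counts, barcodes with at least 200 genes and at most 10% mitochondrial UMIs were kept, and doublets scored with Scrublet (scanpy 1.11.5) were removed at 0.8% per 1000 cells, 256 and 532 in the libraries labelled WT and KO. A cell was gated to the class with the highest mean marker score if that was at least 0.25 and led the next by 0.1. These thresholds were set with the data in view. Classes under 50 cells in either library were not used.

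For each class of each library, UMIs were added up and expressed for every 1000000 UMIs of that sum (CPM). Poisson intervals of levels, conditional intervals of ratios and Clopper-Pearson intervals of shares (scipy 1.17.1) are exact. Only the intervals of ratios were tried on simulated data. Those data were Poisson counts drawn from class sums, so the clumping of UMIs in single cells was not covered. A count of 0 was read against a floor of 3 UMIs. Counts over all genes used those with at least 50 CPM, and in some classes also those with at least 10 CPM, in 1 of the libraries or both and left out haemoglobin, ribosomal protein and mitochondrial genes, and medians over all genes used log2(CPM + 1). Coding sequences, positions and transcript ends came from GENCODE (GRCm38), where 30934 of 31053 identifiers matched, and promoters from RefSeq.

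The members and all lists were chosen with earlier results of these data known. Named were the 10 members in every class, Ifng, Irf1, Socs1, Mettl3 and Lyz2, and, from each list, the 2 highest and 2 lowest ratios in macrophage-like cells at 10 CPM or more, of which examples are given. Ifngr1, Irgm2, Cxcl9, Cxcl10, H2-Aa, Il1b and marker genes were added after their values were seen. Some listed genes are not reported here. Alternatives covered doublets, filters, scaling, thinning, weighting, clustering (leidenalg 0.10.2), gates and single cells.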

Additional observations from a re-analysis of the deposited data

Results flagged for a closer look

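A pair of results stood out because a member went one way in 1 cell class and the other way in further classes, each with a counting interval on 1 side of 0. The differences between classes were not tested. Gbp2 was lower in the library labelled KO in NK-like cells (log2 ratio -1.18) and higher in macrophage-like (0.29), monocyte-like (0.95), granulocyte-like (0.36), cDC2-like (1.14), mature DC-like (0.36) and CD4 T-like cells (0.94). The NK-like value rested on 16 UMIs in each library, which lay in 6 and 15 cells, and 1 cell of the library labelled WT held 10 of its 16. Without the cell with the most Gbp2 UMIs in each library the log2 ratio was -0.00 (interval -1.47 to 1.67), and the opposite direction was lost. The granulocyte-like and CD4 T-like intervals also crossed 0 in that case, at log2 ratios of 0.31 and 0.86.

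Ifi47 was lower in the library labelled KO in CD8 T-like cells (log2 ratio -0.28) and higher in macrophage-like (0.35), monocyte-like (0.62), cDC1-like (1.24), cDC2-like (0.48), pDC-like (0.91) and melanoma-like cells (0.33). It was counted 249 and 191 times in the CD8 T-like cells. Without the cell with the most Ifi47 UMIs in each library the log2 ratio there was -0.27, and its interval (-0.56 to 0.01) crossed 0. In granulocyte-like cells the interval of Ifi47 crossed 0 with all cells (-0.62, -1.33 to 0.03) and lay below 0 without those top cells (-0.72, -1.47 to -0.03).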

How the results depend on the processing

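The median log2 ratio of the members ranged from 0.20 to 0.35 over 10 alternatives in macrophage-like cells, from 0.69 to 1.01 over 10 in monocyte-like cells and from 0.06 to 0.30 over 9 in T-like cells, each between the medians of the members' lower and upper interval bounds. The equal weighting of score bins, and leaving out the top cell in classes other than these 3, were chosen after seeing the data. The number of members past 2-fold in monocyte-like cells, 1 as reported, was 4 with thinned cells, 6 with clusters, 2 with the mean of per-cell CPM, 2 with the stricter gate and 0 with Ly6c2 and Plac8 among the monocyte markers. At a threshold of 1.5-fold it was 8 in monocyte-like and 1 in T-like cells. For the causes of these shifts no test was made. Of 290 values for single members 3 reversed: Gbp3 in macrophage-like cells (-0.24) and Gbp8 in monocyte-like cells (-0.26) with thinned cells, which keep few of their UMIs, and Iigp1 in T-like cells (-0.058) with clusters. A further 21 left their interval, 15 with the same sign and 6 with the other, where the interval had already crossed 0. No paired analysis was possible because each genotype had 1 library. Depth limits the NK-like, pDC-like, B-like, CD4 T-like, mature DC-like and granulocyte-like values most, where 140681 to 893991 UMIs made up a class in the library labelled WT.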
